A study of Rattus norvegicus with 6 samples.

Results

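Expression of 9 genes of the cells that wrap brain vessels, the pericytes of capillaries and the smooth muscle cells of arterioles, was examined in rat brain after subarachnoid hemorrhage (SAH). The genes were Acta2, Tagln, Myh11, Cnn1, Pdgfrb, Notch3, Rgs5, Abcc9 and Cspg4, taken as the entries of the deposited count table whose symbol equals one of these names. Each symbol matched 1 of the 22396 genes in the table, and all 9 were among the 17096 genes kept by the filter on low counts. RNA-seq was performed on basal temporal lobe from 3 SAH + 6-gingerol rats and 3 SAH + PBS rats, with 1 library per rat, and the comparison asked how 6-gingerol, a phenol of ginger, changed gene expression after SAH. All 6 rats were adult male Sprague-Dawley rats that received femoral artery blood into the cisterna magna. The SAH + 6-gingerol rats then received 6-gingerol at 10 mg/kg and the SAH + PBS rats the PBS vehicle, in both cases by intraperitoneal injection 1 h post-SAH, and tissue was taken at 24 h post-SAH. Rats without SAH were not analysed here, so every difference is between treated and vehicle rats that both had SAH. The labels do not say whether rats were handled in batches, and the replicate numbers were not used to pair rats.

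Pericytes and smooth muscle cells, together called mural cells, set the calibre of brain vessels and help to keep the blood-brain barrier closed. Endothelial cells secrete PDGF-B, which recruits and holds mural cells through the receptor encoded by Pdgfrb, and contact with endothelial Notch ligands activates Notch3 on the mural cell. Arteriolar smooth muscle contracts through actin and myosin filaments, and its contractile genes are driven by serum response factor (SRF) with its coactivator myocardin. Spasm of cerebral arteries and arterioles is a known complication of SAH. In bulk tissue, fewer cells of a type and less RNA per cell cannot be told apart, so the levels below are those of the whole sample.

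None of the 9 genes passed an adjusted p under 0.05 in edgeR's quasi-likelihood test, and 0 passed with DESeq2 or with any other tool or setting tried. Over all genes tested, 0.0175% passed. At an unadjusted p under 0.05, 1 of the 9 genes passed, Rgs5, which was higher in the SAH + 6-gingerol rats, beside 13.9% of all genes. The median log2 fold change of the 9 genes, SAH + 6-gingerol over SAH + PBS, was 0.23, beside -0.03 over all genes. Rgs5 was also the only one of the 9 genes whose values did not overlap between groups, a property of 27.2% of all genes tested.

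Depth was even, with total counts of 62762808 to 66761380 with 6-gingerol and 64053899 to 65606360 with PBS. In SAH + PBS rat 2, 15.1% of genes were over 2-fold away from the mean of rats 1 and 3 of that group, and the same measure was 1.29% to 7.18% in the other 5 libraries, so this rat is shown apart and the log2 fold change of each of the 9 genes is also given without it. Markers of neurons, astrocytes and oligodendrocytes were all detected in every library. Levels below are CPM, that is counts scaled to library size with TMM normalization, and positions are those of the deposited table on the Rnor_6.0 assembly.

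The regulatory sequence upstream of the contractile genes is shown first, because SRF acts through CArG boxes in such promoters. RefSeq promoters on GRCr8, 250 bases before the annotated start, were found for Acta2, Cnn1, Notch3, Rgs5, Abcc9 and Cspg4, that is 6 of the 9 genes. None was found for Tagln, Myh11 or Pdgfrb, so of the contractile genes only Acta2 and Cnn1 are covered. The pair that held a searched motif is printed 5′ to 3′ on the strand of the gene, with matches in capitals. The Acta2 promoter lies on the minus strand at chr1:241172504-241172753 and the Cnn1 promoter on the plus strand at chr8:28908187-28908436.
Acta2: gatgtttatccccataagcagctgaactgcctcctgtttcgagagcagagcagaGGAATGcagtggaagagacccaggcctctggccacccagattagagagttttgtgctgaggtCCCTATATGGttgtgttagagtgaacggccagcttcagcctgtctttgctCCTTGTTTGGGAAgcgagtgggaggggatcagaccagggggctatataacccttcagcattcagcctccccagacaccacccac
Cnn1: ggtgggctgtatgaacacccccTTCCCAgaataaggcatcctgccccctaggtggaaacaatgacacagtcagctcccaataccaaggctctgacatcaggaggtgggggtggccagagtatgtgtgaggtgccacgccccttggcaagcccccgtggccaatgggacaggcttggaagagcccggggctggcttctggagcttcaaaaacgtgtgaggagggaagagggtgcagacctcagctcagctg
The CArG box in its strict form, with A or T throughout its middle, was in 0 of the 6 promoters and in 1.5% of 33469 promoters of the same length, on either strand. A looser form that allows 1 G or C in the middle, added after the sequences were seen, was in 1 of the 6, Acta2, and in 6.84% of all promoters. Counted from the annotated start, the Acta2 matches lie at -134 to -125 and at -84 to -75. The motif TGGGAA, bound by RBPJ, the DNA-binding partner of Notch, was in 2 of the 6 promoters and in 22.1% of all. In Acta2 it lies at -77 to -72, overlapping the second CArG-like match, and in Cnn1 at -228 to -223 on the opposite strand, where it reads TTCCCA. The motif CATTCC, bound by TEAD factors, was in 1 of the 6 promoters, Acta2, at -196 to -191 on the opposite strand, where it reads GGAATG, and in 12.1% of all promoters. These matches are letters in a window and no binding was measured.

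The 4 contractile genes were at their lowest in SAH + PBS rat 1. Acta2 encodes smooth muscle alpha-actin, the actin of the contractile thin filament, on the minus strand of chromosome 1 from 252537615 to 252550394. Acta2 had 33.0, 20.5 and 23.3 CPM in treated rats 1 to 3, those given 6-gingerol, against 8.24, 36.9 and 14.4 CPM in vehicle rats 1 to 3, those given PBS. All 3 treated rats lay above SAH + PBS rats 1 and 3, while SAH + PBS rat 2 was the highest of the 6 and stood at 3.25 times the mean of the other vehicle rats. The Acta2 log2 fold change was 0.37 (SE 0.53, 95% interval -0.92 to 1.65, adjusted p = 0.734, edgeR), within the spread between rats. Without SAH + PBS rat 2 it was 1.17 (SE 0.31), a 2.26-fold higher level in the treated rats, at an unadjusted p of 0.00821 and an adjusted p of 0.169. Without SAH + PBS rat 1 it was -0.0023, so the direction for Acta2 rested on which vehicle rats were counted.

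Tagln, on the minus strand of chromosome 8 from 50222896 to 50231357, encodes transgelin, an actin-binding protein of smooth muscle. Tagln had 53.2, 33.9 and 36.4 CPM in the treated rats, against 17.7, 41.0 and 33.0 CPM in the vehicle rats. Its log2 fold change was 0.43 (SE 0.33, 95% interval -0.37 to 1.23, adjusted p = 0.518, edgeR), and 0.70 (SE 0.31, adjusted p = 0.36) without SAH + PBS rat 2. Treated rats 2 and 3 lay between SAH + PBS rats 2 and 3, and only treated rat 1 was above every vehicle rat. The Tagln model shares 1019 bases with Sidt2 on the same strand, and reads there may have gone to either gene. Sidt2 had 78.7, 81.2 and 74.9 CPM in the treated rats and 62.8, 88.3 and 83.4 CPM in the vehicle rats (log2 fold change 0.00, adjusted p = 0.996).

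Myh11 encodes the myosin heavy chain of smooth muscle, on the plus strand of chromosome 10 from 764421 to 859184. Myh11 had 61.5, 40.2 and 40.6 CPM in the treated rats, against 20.5, 45.1 and 37.3 CPM in the vehicle rats. The Myh11 log2 fold change was 0.47 (SE 0.32, 95% interval -0.30 to 1.24, adjusted p = 0.473, edgeR), and 0.72 (SE 0.31, adjusted p = 0.339) without SAH + PBS rat 2. The order of the rats was the same as for Tagln.

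Cnn1, the fourth contractile gene, at 23113048 to 23121761 on the plus strand of chromosome 8, encodes calponin 1, which binds actin and restrains myosin. It was the least abundant of the 9 genes, with 158, 55 and 37 counts in the treated rats and 40, 183 and 87 counts in the vehicle rats. As CPM these were 2.51, 0.854 and 0.618 in the treated rats, against 0.588, 2.66 and 1.32 in the vehicle rats. Treated rat 1 and vehicle rat 2 stood well above the other 4 rats, and the groups overlapped fully. The Cnn1 log2 fold change was -0.20 (SE 0.73, 95% interval -1.95 to 1.56, adjusted p = 0.9, edgeR), an interval that holds changes of over 2-fold either way. It was 0.0451 without treated rat 2, 0.15 without treated rat 3 and 0.48 without SAH + PBS rat 2, so its sign was not settled.

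**Figure D1:**
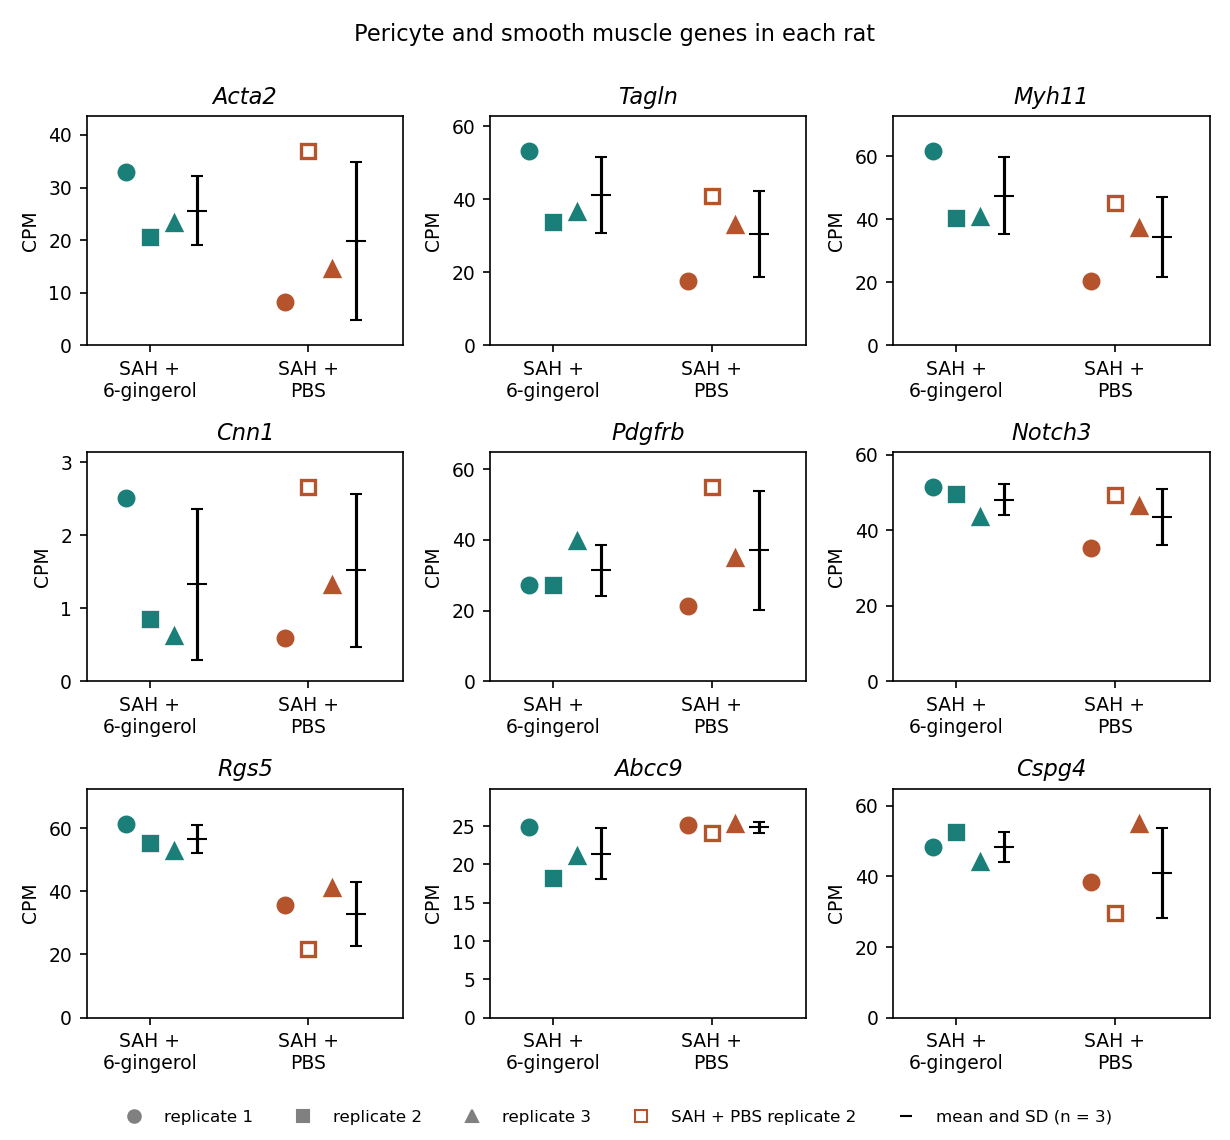
Level of each of the 9 genes in CPM (vertical axes, linear from 0), with 1 point per rat, SAH + 6-gingerol rats left and SAH + PBS rats right, SAH + PBS rat 2 drawn apart from the other vehicle rats and the mean ± SD of each group in black. The Rgs5 points of the treated rats lie at 52.8 to 61.5 CPM, above every vehicle rat, while the points of the other 8 genes overlap between groups.

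Tagln and Myh11 kept a nearly fixed proportion to each other in every library, and Acta2 did not keep one to either. On the FPKM scale, which divides by gene length, Tagln stood at 4.62, 4.50 and 4.79 times Myh11 in the treated rats and at 4.60, 4.85 and 4.73 times Myh11 in the vehicle rats. This ratio differed by less than the spread within either group, although between the highest and the lowest library the FPKM of Tagln varied 2.79-fold and that of Myh11 2.78-fold. Acta2 over Tagln was 0.558, 0.545 and 0.576 in the treated rats, against 0.420, 0.811 and 0.394 in the vehicle rats. The treated rats thus sat within a narrow band, and the vehicle rats fell on both sides of it. Acta2 over Myh11 had the same layout, with 2.58, 2.45 and 2.76 in the treated rats and 1.94, 3.94 and 1.86 in the vehicle rats.

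**Figure D2:**
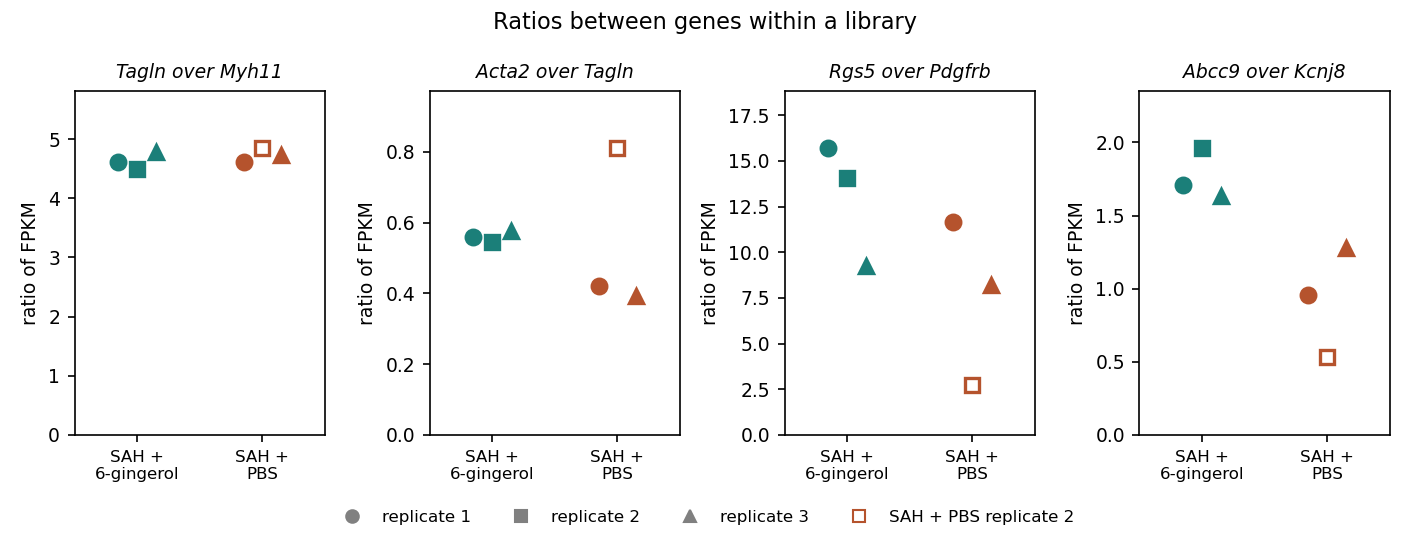
Ratios of FPKM between pairs of genes (vertical axes, no unit), with 1 point per rat, SAH + 6-gingerol rats left and SAH + PBS rats right. Tagln over Myh11 stays between 4.50 and 4.85 in all 6 rats, while Acta2 over Tagln is 0.545 to 0.576 in the treated rats and 0.394 to 0.811 in the vehicle rats.

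Pdgfrb and Notch3 encode the receptors through which endothelial cells address mural cells, and neither changed beyond the spread between rats. Pdgfrb lies on the plus strand of chromosome 18 from 56364620 to 56406381. Its level was 27.2, 27.3 and 39.7 CPM in the treated rats, against 21.4, 54.8 and 35.0 CPM in the vehicle rats. SAH + PBS rat 2 was the highest of the 6, at 1.94 times the mean of the other vehicle rats. The Pdgfrb log2 fold change was -0.24 (SE 0.35, 95% interval -1.08 to 0.60, adjusted p = 0.735, edgeR), and 0.16 (SE 0.26, adjusted p = 0.834) without that rat. Notch3 lies on the minus strand of chromosome 7 from 14138495 to 14189688, and the only model overlapping it, on the opposite strand, had at most 8 counts. It was among the steadiest of the 9 genes, with 51.3, 49.6 and 43.4 CPM in the treated rats and 35.2, 49.2 and 46.4 CPM in the vehicle rats. Its log2 fold change was 0.14 (SE 0.16, 95% interval -0.23 to 0.52, adjusted p = 0.645, edgeR), and 0.24 (SE 0.14, adjusted p = 0.496) without SAH + PBS rat 2.

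Rgs5, one of the most used markers of brain pericytes, encodes a protein that switches off G protein signalling by speeding GTP hydrolysis. It lies on the plus strand of chromosome 13 from 87966758 to 88003035. Rgs5 had 61.5, 55.2 and 52.8 CPM in the treated rats, against 35.8, 21.6 and 41.2 CPM in the vehicle rats. Every treated rat was above every vehicle rat, and SAH + PBS rat 2, highest for Acta2 and Pdgfrb, was the lowest for Rgs5. The means were 56.5 ± 4.47 CPM in the treated rats and 32.9 ± 10.1 CPM in the vehicle rats (SD, n = 3 each). The Rgs5 log2 fold change was 0.78 (SE 0.24, 95% interval 0.20 to 1.36), a 1.72-fold higher level with 6-gingerol, at an unadjusted p of 0.0155 and an adjusted p of 0.347 in edgeR. By the exact 2-sided permutation test p was 0.1, which is the minimum for 3 rats in each group, and for the other 8 genes it was 0.2 to 0.8. Without SAH + PBS rat 2 the log2 fold change was 0.55 (SE 0.11, unadjusted p = 0.00208, adjusted p = 0.109). Leaving out treated rat 1 gave 0.72 in edgeR, and Rgs5 then missed the unadjusted limit as well. Across all alternatives the log2 fold change stayed between 0.55 and 0.98 with adjusted p from 0.0627 to 0.646. Rgs5 ranked 738th of 17096 genes by p, and 892 genes, 5.22% of those tested, were higher at an unadjusted p under 0.05.

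Abcc9 encodes SUR2, the regulatory subunit that pairs with the pore subunit of Kcnj8 in the ATP-sensitive potassium channel of mural cells. It lies on the minus strand of chromosome 4 from 176805431 to 176922424. Abcc9 had 24.9, 18.2 and 21.1 CPM in the treated rats, against 25.2, 24.1 and 25.3 CPM in the vehicle rats. The vehicle rats, rat 2 included, were within a narrow range, and the treated rats reached lower with an overlap at treated rat 1. The Abcc9 log2 fold change was -0.22 (SE 0.15, 95% interval -0.57 to 0.14, adjusted p = 0.469, edgeR), and -0.24 (SE 0.15, adjusted p = 0.506) without SAH + PBS rat 2.

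Cspg4, on the plus strand of chromosome 8 from 61532465 to 61567510, encodes the NG2 proteoglycan, which oligodendrocyte precursors carry as well as mural cells. Cspg4 had 48.3, 52.5 and 44.0 CPM in the treated rats, against 38.4, 29.7 and 55.0 CPM in the vehicle rats. Its log2 fold change was 0.23 (SE 0.23, 95% interval -0.32 to 0.79, adjusted p = 0.606, edgeR), and 0.05 without SAH + PBS rat 2. The 9 tested markers of oligodendrocyte precursors summed to 582 to 659.8 CPM in the treated rats and 446 to 592 CPM in the vehicle rats, with the lowest sum also in SAH + PBS rat 2. In that rat 7 of the 9 markers were at their lowest, while Pdgfra, at 246 CPM, was at its highest and made up much of the sum. How much of the Cspg4 RNA came from oligodendrocyte precursors was not tested.

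**Figure D3:**
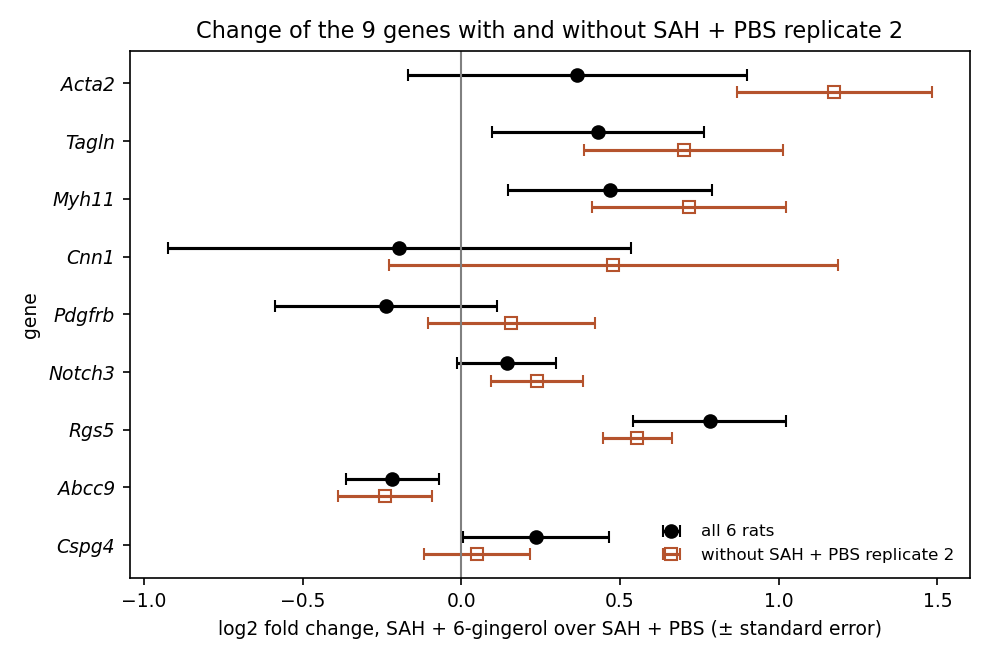
Log2 fold change of each gene, SAH + 6-gingerol over SAH + PBS (horizontal axis), with standard errors from edgeR, for all 6 rats (filled points) and without SAH + PBS rat 2 (open squares). The Acta2 point moves most, to 1.17 without that rat against 0.37 with all rats, and the Rgs5 point stays above 0, at 0.55 and 0.78.

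The 9 genes did not move as a block between rats. SAH + PBS rat 1 had the lowest level of 6 genes, the 4 contractile genes, Pdgfrb and Notch3. Treated rat 1 had the highest level of 4 genes, Tagln, Myh11, Notch3 and Rgs5. SAH + PBS rat 2 was highest for Acta2, Cnn1 and Pdgfrb and lowest for Rgs5 and Cspg4, and SAH + PBS rat 3 was highest for Abcc9 and Cspg4. Without SAH + PBS rat 2, the median log2 fold change of the 9 genes was 0.48, beside -0.01 over all genes, and 2 genes, Acta2 and Rgs5, were higher at an unadjusted p under 0.05. Of all genes 15.6% passed this limit there, and 8.02% passed it in the higher direction. In that subset the values of 5 of the 9 genes did not overlap between groups, Acta2, Tagln, Myh11 and Rgs5 higher and Abcc9 lower with 6-gingerol, against 34.3% of all genes. No gene of the 9 passed an adjusted p under 0.05 there, where 0.524% of all genes did.

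**Figure D4:**
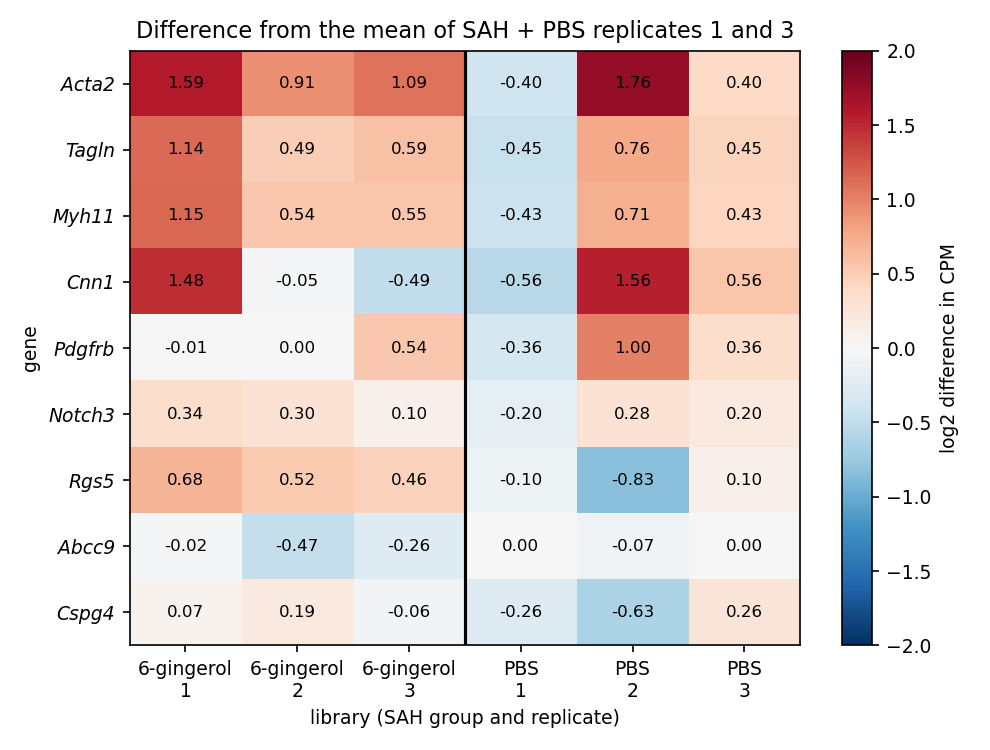
Log2 CPM of each gene in each rat minus the mean log2 CPM of SAH + PBS rats 1 and 3 (color scale, log2 units), with SAH + 6-gingerol rats left of SAH + PBS rats. SAH + PBS rat 2 is at 1.76 for Acta2, 1.56 for Cnn1 and 1.00 for Pdgfrb, but at -0.83 for Rgs5 and -0.63 for Cspg4.

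On the FPKM scale, over all 6 libraries, the order of levels was Rgs5 at 53.9 ± 15.8, Tagln at 28.5 ± 8.91 and Acta2 at 16.3 ± 8.15 (SD, n = 6). Tagln was above Acta2 in all 6 libraries, and Rgs5 was above Tagln in 5 of 6, the exception being SAH + PBS rat 2. Next came Notch3 at 6.26 ± 0.806 FPKM, Myh11 at 6.08 ± 1.88 FPKM, Pdgfrb at 6.05 ± 2.35 FPKM and Cspg4 at 5.50 ± 1.04 FPKM. Notch3 exceeded Myh11 in 3 of 6 libraries, Myh11 exceeded Pdgfrb in 2 and Pdgfrb exceeded Cspg4 in 2, so these 4 neighbours did not differ beyond their spread. Abcc9 at 3.23 ± 0.496 FPKM was below Cspg4 in all 6 libraries, and Cnn1 at 0.958 ± 0.650 FPKM was below Abcc9 in all 6. In SAH + PBS rat 1, where Myh11 was at its lowest, Abcc9 exceeded Myh11, with 3.63 against 3.17 FPKM.

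Of the 8 ratios computed, that of the pericyte marker Rgs5 to Pdgfrb spread most between rats. It was 15.7, 14.1 and 9.26 in the treated rats, against 11.7, 2.74 and 8.19 in the vehicle rats. Only SAH + PBS rat 2 fell far from the others, and the groups overlapped at treated rat 3 and vehicle rat 1. Acta2 over Pdgfrb was 4.96, 3.07 and 2.40 in the treated rats, against 1.58, 2.76 and 1.69 in the vehicle rats.

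Other cell types of the vessel wall and its surroundings also varied between rats, with SAH + PBS rat 2 at one end for several of them. Of 12 listed endothelial markers 9 were tested, and their sum was 388 to 408 CPM in the treated rats and 425 to 902 CPM in the vehicle rats, with the maximum in rat 2. The most abundant of them was Slc2a1, the glucose transporter of the barrier. In a sum without it, not planned in advance, the treated rats had 271 to 279 CPM and the vehicle rats 253, 537 and 266 CPM. The treated rats then lay above vehicle rats 1 and 3, but this order rested on Slco1a4. Of the 9 markers, 1 had a positive log2 fold change, Slco1a4, and 8 a negative one. Slco1a4 had 78.1, 65.0 and 72.4 CPM in the treated rats, against 43.4, 15.3 and 56.6 CPM in the vehicle rats. Cldn5, the claudin of the endothelial tight junction, was listed at 0 in 5 libraries and at 922 counts in SAH + PBS rat 2, and was not tested. It was among 185 genes listed at 0 in some libraries and at a median of at least 100 counts in the others. The endothelial marker Cdh5 had 1461 to 2107 counts in the same 5 libraries, so the Cldn5 zeros are not read as absent endothelial RNA. The cause of these zeros was not tested. All 14 markers of perivascular and meningeal fibroblasts were tested, and they summed to 536 to 741 CPM in the treated rats, against 401, 1197 and 686 CPM in SAH + PBS rats 1 to 3. Their lowest and highest sums thus fell in the rats with the lowest and the highest Acta2, SAH + PBS rats 1 and 2. The single markers did not all follow the sums. In SAH + PBS rat 2, 10 of the 14 were at their highest and 2, Slc6a13 and Slc22a6, at their lowest. Of 9 listed blood markers 5 were tested, with sums of 207 to 283 CPM in the treated rats and 118, 462 and 159 CPM in the vehicle rats. Most of each sum was the globin Hbb, with 198 to 273 CPM in the treated rats and 107, 394 and 146 CPM in the vehicle rats. The 3 immune cell markers of this list, S100a8, S100a9 and Ptprc, were lower in every treated rat than in any vehicle rat, beside 13.4% of all genes. Counts were low for S100a8, with 0, 10 and 12 in the treated and 30, 666 and 66 in the vehicle rats. For S100a9 they were 6, 11 and 24 against 54, 1312 and 86. The 6 tested microglia markers, listed apart, had overlapping sums, 276 to 287 CPM in the treated and 274 to 298 CPM in the vehicle rats. Ptprc had 4.96 to 6.15 CPM in the treated rats and 8.75, 36.5 and 9.20 CPM in the vehicle rats. Of 10 listed markers of choroid plexus epithelium 9 were tested, with sums of 14.1 to 17.3 CPM in the treated rats and 1178, 37.3 and 352 CPM in the vehicle rats, the maximum here being in rat 1. In SAH + PBS rat 2, Aqp1 alone made up 32.1 CPM of the sum. Ttr had 0.61 CPM in that rat, within the 0.435 to 3.51 CPM of the treated rats, so the sum there rested on Aqp1. The 8 neuronal markers summed to 7924 to 8579.5 CPM in the treated rats and to 3495 to 6290.1 CPM in the vehicle rats, without overlap. Of these markers 6 were higher in every treated rat than in any vehicle rat, beside 13.8% of all genes. The inhibitory neuron markers Gad1 and Gad2 overlapped between groups, at log2 fold changes of 0.06 and 0.22. The part of these differences in the levels of the 9 genes was not tested.

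The genes whose pattern over the 6 libraries was most like the mean log2 CPM of the 4 contractile genes, among 12157 other genes of at least 5 CPM, were Hba-a3 (Pearson r = 0.985), Smim11 (r = 0.977) and Fat1 (r = 0.959). Hba-a3, an alpha globin of red blood cells, had 12.9, 6.82 and 6.52 CPM in the treated rats, against 3.49, 14.8 and 6.62 CPM in the vehicle rats. Like Acta2 and Cnn1, it was lowest in SAH + PBS rat 1 and highest in SAH + PBS rat 2. For the mean of the other 5 genes the nearest were Pigt (r = 0.983), Lrp4 (r = 0.976) and LOC108348081 (r = 0.975). Over the 4 libraries left without SAH + PBS rats 1 and 2, these values were 0.67, 0.54 and 0.55, so they rested on those rats. With 6 libraries and so many genes, high values of r are a description of these libraries only.

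The wider pathways of mural cells were read from 7 lists with 90 tested genes, of which 0 passed an adjusted p under 0.05 in edgeR and 7 passed with DESeq2, which called 3.92% of all genes. At an unadjusted p under 0.05 in edgeR, 23 of the 90 genes (25.6%) passed, 11 higher and 12 lower in the treated rats. Of all genes 13.9% passed, 5.22% higher and 8.71% lower. The median log2 fold change of the 90 genes was -0.03, the same as over all genes, and without SAH + PBS rat 2 it was 0.13, beside -0.01 over all genes. The lists are described by these counts and carry no test of their own.

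Among 19 other pericyte genes, 2 were higher and 2 lower at an unadjusted p under 0.05, and the median was -0.08, or 0.05 without SAH + PBS rat 2. Vtn, the pericyte-secreted matrix protein vitronectin, had the layout of Rgs5, with 44.1, 40.2 and 32.8 CPM in the treated rats, against 22.5, 12.1 and 23.97 CPM in the vehicle rats (log2 fold change 1.00, SE 0.28, adjusted p = 0.343, edgeR, or 0.75 without SAH + PBS rat 2). Its FPKM stood at 0.301 to 0.352 of Rgs5 in the treated rats and at 0.271 to 0.305 of Rgs5 in the vehicle rats. Art3, an ecto-ADP-ribosyltransferase family gene, was at 0.91 (adjusted p = 0.347). Ifitm1, an interferon-induced membrane protein gene, was at -3.12 (adjusted p = 0.343), with 1.35 to 1.96 CPM in the treated rats and 4.78, 33.3 and 4.67 CPM in the vehicle rats, and at -1.53 without SAH + PBS rat 2.

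Kcnj8, the channel partner of Abcc9 and its neighbour on chromosome 4 with no gene model between them, was lower in every treated rat than in any vehicle rat. It had 5.12, 3.26 and 4.55 CPM in the treated rats, against 9.30, 15.9 and 6.95 CPM in the vehicle rats (log2 fold change -1.31, SE 0.36, adjusted p = 0.343, edgeR, or -0.91 without SAH + PBS rat 2). Abcc9 over Kcnj8, in FPKM, was 1.71, 1.96 and 1.63 in the treated rats and 0.954, 0.532 and 1.28 in the vehicle rats, without overlap. Of the channel subunits found mainly in other cells, Abcc8 was at 0.54 (adjusted p = 0.349) and Kcnj11 at 0.06 (adjusted p = 0.866).

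Among 21 other smooth muscle genes, 2 were higher and 1 was lower at an unadjusted p under 0.05, with a median of -0.02, or 0.27 without SAH + PBS rat 2. Myl9, the regulatory light chain through which myosin is switched on, had 29.9, 21.1 and 18.9 CPM in the treated rats, against 7.68, 11.9 and 11.9 CPM in the vehicle rats. Its log2 fold change was 1.15 (SE 0.26, adjusted p = 0.334, edgeR), and here SAH + PBS rat 2 sat with the other vehicle rats. Casq2, a calcium-binding protein of muscle stores, was at 1.37 (adjusted p = 0.349), with 0.407 to 2.15 CPM over all rats. Crispld2, a secreted protein gene, had 10.1, 8.26 and 10.2 CPM in the treated rats, against 21.6, 34.0 and 19.8 CPM in the vehicle rats. Its log2 fold change was -1.40 (SE 0.24, adjusted p = 0.334, edgeR), and -1.12 with an adjusted p of 0.0457 without SAH + PBS rat 2, the only one of the 90 genes to pass there. Des, the intermediate filament protein desmin, was at -1.59 (adjusted p = 0.363), with 12.4, 6.20 and 4.83 CPM in the treated rats and 14.02, 47.4 and 9.41 CPM in the vehicle rats, and at -0.58 without that rat.

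The 9 tested genes of SRF, its coactivators and related factors had a median log2 fold change of -0.33, or 0.01 when SAH + PBS rat 2 was left out, and 1 of them, Tead4, was lower at an unadjusted p under 0.05. Tead4, a TEAD factor, was at -1.70 (adjusted p = 0.358), with 3.12, 3.21 and 1.84 CPM in the treated rats and 5.16, 18.5 and 2.95 CPM in the vehicle rats. Tead3 was at -0.71 (adjusted p = 0.359), Tead1 at -0.86 (adjusted p = 0.372) and Klf4, a repressor of contractile genes, at -0.78 (adjusted p = 0.492). Without SAH + PBS rat 2, Tead4 was at -0.57, Tead3 at -0.30, Tead1 at -0.35 and Klf4 at 0.22. The median of -0.33 was the value of Elk4 (SE 0.80). Srf itself was at -0.22 (SE 0.22), Myocd, the gene of myocardin, at 0.32 (SE 0.40) and the related Mkl1 at 0.08 (SE 0.13). Without SAH + PBS rat 2 Srf was at 0.06, Myocd at 0.29 and Mkl1 at -0.01. Elk4, Srf, Myocd and Mkl1 are named after their values were seen. None of the 5 genes of PDGF ligands and the second PDGF receptor had an unadjusted p under 0.05 with all rats, with Pdgfd at 0.39, Pdgfa at 0.25, Pdgfc at 0.19 and Pdgfra at -0.29, the last at 0.18 without SAH + PBS rat 2. Without that rat 2 of the 5 were higher at an unadjusted p under 0.05, Pdgfa at 0.34 and Pdgfb at 0.36. Pdgfb, the ligand of the receptor encoded by Pdgfrb, was at -0.23 with all rats and is named after its values were seen. It had 30.5, 33.6 and 29.3 CPM in the treated rats, against 26.3, 61.2 and 22.3 CPM in the vehicle rats.

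Of 19 tested Notch ligands, receptors and targets 6 were lower and 0 higher at an unadjusted p under 0.05, with a median of -0.32. When SAH + PBS rat 2 was left out the median was -0.10, and 4 were lower and 2 higher. Those 2 were the Notch targets Hes5, at 0.78, and Nrarp, at 0.66, both named after their values were seen. With all rats Hes5 was at 1.22 (adjusted p = 0.369), with 20.2, 17.7 and 18.7 CPM in the treated rats, against 10.1, 2.28 and 11.8 CPM in the vehicle rats. Notch4, a receptor of endothelial cells, had 20.6, 22.3 and 17.1 CPM in the treated rats, against 31.3, 50.7 and 27.6 CPM in the vehicle rats (log2 fold change -0.87, adjusted p = 0.347, edgeR, or -0.55 without SAH + PBS rat 2). Dll4, an endothelial Notch ligand, had 3.31, 3.34 and 3.43 CPM in the treated rats, against 8.18, 20.4 and 4.44 CPM in the vehicle rats (log2 fold change -1.71, or -0.91 without SAH + PBS rat 2). Jag1, the ligand that activates Notch3, was at -0.64 (adjusted p = 0.347) and Notch2 at -0.65 (adjusted p = 0.349), and neither overlapped between groups. They were at -0.41 and -0.31 without SAH + PBS rat 2. The 9 endothelial markers had a median log2 fold change of -0.71 with all rats and of 0.01 without SAH + PBS rat 2, and their part in these values was not tested.

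Among 15 tested genes of the RGS family apart from Rgs5, 6 were higher and 2 lower at an unadjusted p under 0.05, with a median of 0.34. Rgs7, a regulator of G proteins in neurons, had 99.7, 106 and 117 CPM in the treated rats, against 75.9, 71.3 and 67.2 CPM in the vehicle rats (log2 fold change 0.59, SE 0.11, adjusted p = 0.334, edgeR). Rgs20 was at 0.45 and Rgs12 at 0.40 (adjusted p = 0.347 for both), and neither overlapped between groups. Rgs1, expressed in immune cells, was at -4.73 (adjusted p = 0.347) with 0.493, 0.0621 and 0.0669 CPM in the treated rats and 1.06, 14.5 and 1.15 CPM in the vehicle rats, and at -2.40 without SAH + PBS rat 2.

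**Figure D5:**
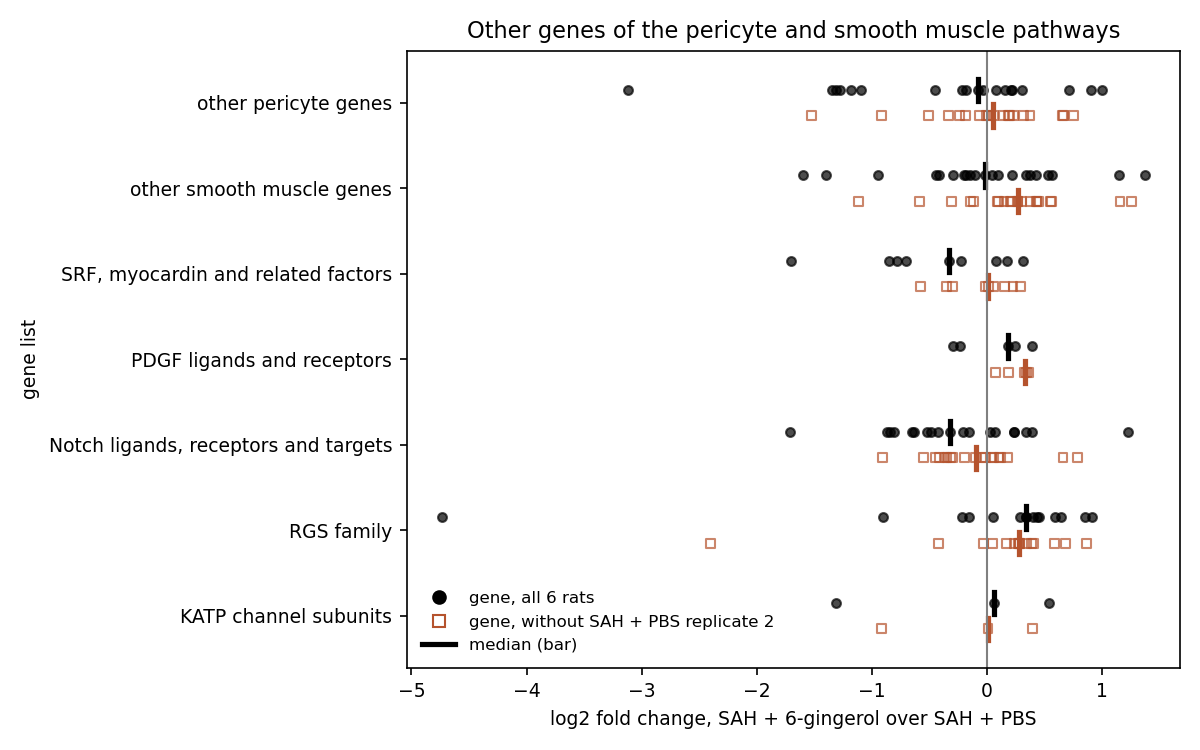
Log2 fold change, SAH + 6-gingerol over SAH + PBS (horizontal axis), of the 90 tested genes of the 7 related lists, for all 6 rats (filled) and without SAH + PBS rat 2 (open), with 1 point per gene and a bar at each median. With all rats the medians range from -0.33 for SRF and related factors, a list in which Srf itself is at -0.22, to 0.34 for the RGS family.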

How the data were processed

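Each of 6 libraries came from the basal temporal lobe of 1 rat, and groups were taken from the sample titles. Table columns headed Control are SAH + 6-gingerol rats per the labels, and 0 columns were left unmatched. The authors deposited whole-number counts per gene and FPKM for the same 22396 genes. The deposited FPKM follow the counts with 1 length per gene to within 0.00961% over 13995 genes. Without saying which did what, the submitters' processing notes list limma 3.32.10, StringTie 1.3.3b and HISAT2 2.1.0 and the assembly Rnor_6.0, and the study's methods name STAR and DESeq2. Not given in the sources used here are the annotation release, the counter and whether it used strand, so reads of overlapping genes may be shared between them.

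Counts were tested with edgeR 4.0.16 in R 4.3.3 (filterByExpr with a minimum count of 10 and minimum total of 15, TMM, glmQLFit and glmQLFTest, Benjamini-Hochberg adjustment over 17096 genes). SE were taken from the fold change and the F statistic. P-values measure the spread between single libraries of single rats, and FPKM were used for levels and ratios between genes. Alternatives were RLE factors, library totals, no filter, 1 CPM in every rat, DESeq2 1.42.0, limma 3.58.1 (voom, voom with sample quality weights, log2(FPKM + 0.1), and log2(FPKM + 1) with and without a minimum FPKM of 0.5 in 3 libraries), the replicate number as a block, and each rat left out. After seeing the data, 1 was added, without genes listed at 0 in some libraries and at a median of at least 100 counts in the others.

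The 9 genes and all lists were chosen with earlier results of these data known. All 9 are named, and of each other list the 4 genes of smallest p with a mean of at least 1 CPM, where so many were measured. The 3 genes of highest Pearson r are named for the contractile genes and for the other 5. Promoters are from RefSeq.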

Additional observations from a re-analysis of the deposited data

How the results depend on the processing

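Of 161 values of the 9 genes under 17 alternatives and 1 chosen after seeing the data, 154 kept their direction and none passed an adjusted p under 0.05. The sign of Rgs5, Tagln, Myh11, Notch3, Abcc9 and Cspg4 held in all of them. With sample quality weights in voom, Cnn1 was at 0.59, Pdgfrb at 0.28, Klf4 at 0.10 and Pdgfra at 0.23, 5 of the 9 genes (Acta2, Tagln, Myh11, Notch3 and Rgs5) had an unadjusted p under 0.05 beside 22.9% of all genes, and 147 genes of the whole table and 1 of the other list genes passed. Kcnj11, at 0.06 in edgeR, was at -0.0609 with library totals, -0.11 with quality weights, -0.0521 on log2(FPKM + 1), also unfiltered, and -0.0559 on log2(FPKM + 0.1). Library totals moved the median of all genes to -0.15 and the filtered FPKM to -0.10 or -0.12 (-0.06 unfiltered), against -0.03 with TMM, and turned no sign among the 9 genes.

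Leaving out each rat in turn, log2 fold changes ran from -0.0023 to 1.17 for Acta2, -1.04 to 0.48 for Cnn1, -0.51 to 0.16 for Pdgfrb, -0.0636 to 0.21 for Kcnj11, -1.11 to 0.22 for Klf4 and -0.53 to 0.18 for Pdgfra. The number of the 9 genes at an unadjusted p under 0.05 ran from 0, without SAH + 6-gingerol rat 1, where Rgs5 was lost, to 2, that of other list genes called from 0 to 1, and that of genes called in the whole table from 0 to 91, with 91 without SAH + PBS rat 2. In the whole table, 3 genes were called by edgeR, 668 by DESeq2 (7 of the other list genes), 5 on log2(FPKM + 0.1), 0 at 1 CPM in every rat, 0 once genes at 0 in part of the libraries were left out, and 0 with the replicate block. Same-numbered rats did not deviate together (r = -0.0415, 0.00647 and 0.00913), so no pairing by number was seen. With 3 rats per group these values cannot exclude shared handling. Under the block 1 of the 9 genes was again at an unadjusted p under 0.05. The causes of these changes were not tested. With 3 rats per group, the narrowest 95% interval of the 9 genes was that of Abcc9, -0.57 to 0.14, and the widest that of Cnn1, -1.95 to 1.56.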
